A study of Mus musculus with 2 samples.

Results

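The mouse genes for the receptors that bind the Fc portion of IgG antibodies were followed in RAW246.7 cells, a mouse macrophage-like line named here in the submitters' spelling. They are the activating receptor genes Fcgr1, Fcgr3 and Fcgr4, the inhibitory receptor gene Fcgr2b, Fcer1g for the shared signalling chain, and Fcgrt for the neonatal Fc receptor. They were chosen by symbol, and all 6 were found among the 55414 genes of the deposited table. The control library came from cells kept for 24 h under an elongation strain that the labels call normal without a value, and the stretched library from cells under 20% elongation for 24 h. Each group had 1 library, so every difference is one between 2 libraries and has no replicate check. The labels also give synovial membrane as the tissue; they do not say whether strain was cyclic or static.

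In mouse macrophages the activating IgG receptors do not signal alone. They pair with the FcR gamma chain, whose cytoplasmic tail carries an immunoreceptor tyrosine-based activation motif (ITAM); Src-family kinases phosphorylate its tyrosines, the kinase Syk docks there, and phagocytosis, oxidant release and cytokine production follow. Fcgr2b carries an inhibitory motif (ITIM) instead, recruits the lipid phosphatase SHIP1 and raises the threshold for activation, so the ratio of activating to inhibitory receptors is commonly used to describe how readily a macrophage responds to immune complexes. The neonatal receptor works inside endosomes, where it binds IgG and albumin at acid pH and returns them to the surface.

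The control library held 14769100 estimated counts over 20388 genes and the stretched library 13391645 over 20775. The 6 genes together took 4614 counts (0.0312%) in control and 4229 (0.0316%) in stretched. Macrophage markers were present: 9 of 10 passed a filter of 20 counts over both libraries, 0 met the size rule given next, and their summed level was 2731 FPKM (fragments per kilobase, a level that allows for transcript length and sequencing depth) in control and 3915 in stretched. Most of the difference in that sum came from Lyz2 (1320 and 2289 FPKM), and the other 9 markers summed to 1411 and 1627. On the log2 scale Lyz2 differed by 0.75, Adgre1 by 0.38 and Cd14 by 0.31, whereas Ptprc differed by -0.26 and Spi1 by -0.12. Mertk, the tenth, had 3 and 0 counts. Synovial fibroblast markers summed to 19 and 23 counts, with Col1a2, Col3a1, Pdgfra, Thy1 and Dcn at 0 in both libraries; endothelial markers summed to 40 and 43, mast cell markers to 16 and 29, and T and NK cell markers to 5 and 5 counts.

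A gene is called higher or lower here when both libraries together held at least 20 of its counts, its scaled ratio reached 2-fold and the 95% counting interval of that ratio left out 1. Of the 6 Fc receptor genes, Fcgr4 was higher, 0 were lower and 5 met neither side; over all 12772 genes past the filter, 3.12% were higher and 1.94% lower. Fcgr2b and Fcgr3 also had more counts in the stretched library, by less than 2-fold, Fcgr1 had fewer, and Fcer1g and Fcgrt had counting intervals that included no difference. With a limit of 1.5-fold, 3 of the 6 were higher (Fcgr4, Fcgr2b and Fcgr3) and 0 lower, against 6.2% and 3.64% of all genes. In bulk RNA a smaller share of cells expressing a gene and less of its RNA per cell cannot be told apart.

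**Figure D1:**
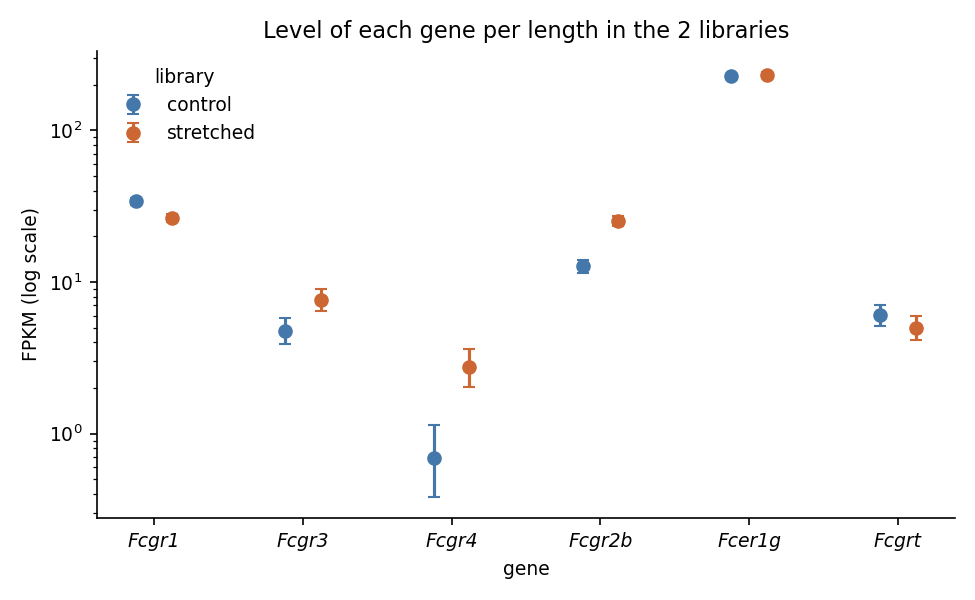
Level of each gene in FPKM (log scale) in the control and the stretched library, 1 library each, with exact Poisson 95% intervals of the counts carried to FPKM. Fcer1g stood at 227 and 232 FPKM, Fcgr4 at 0.687 and 2.74, and Fcgr1 and Fcgr2b, 34.0 and 12.6 in control, at 26.5 and 25.2 in stretched over all transcripts.

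Fcgr1 encodes CD64, the high-affinity IgG receptor. The gene (ENSMUSG00000015947, chromosome 3, 96190225 to 96201285, minus strand, on GRCm39 as for all gene positions) was given 1440 counts in control and 996 in stretched, or 34.0 and 26.5 FPKM. It was the most abundant of the 4 IgG receptor genes per length in control, and the ratio of control to stretched was 1.33 by counts. The log2 difference was -0.41 (95% counting interval -0.52 to -0.29), under the 2-fold limit, and 9.44% of tested genes had a lower value. In the authors' deposited table the log2 fold change was -0.41 with an adjusted p of 0.679. With 1 library per group, every p in the authors' deposited table rests on a variation that these libraries cannot measure.

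Fcgr3 encodes the mouse CD16 receptor, a low-affinity activating receptor for immune complexes. The gene (ENSMUSG00000059498, chromosome 1, 170878743 to 170892504, minus strand) had 106 and 150 counts, control and stretched, and 4.77 and 7.63 FPKM. Its log2 difference of 0.62 (0.26 to 1.00) corresponded to a ratio of 1.54, and 7.45% of tested genes had a higher value. The authors' deposited table lists a log2 fold change of 0.63 and an adjusted p of 0.436.

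Fcgr4 encodes an activating receptor of intermediate affinity for certain IgG subclasses and, like Fcgr1 and Fcgr3, needs the gamma chain. The gene (ENSMUSG00000059089, chromosome 1, 170846489 to 170857330, plus strand) had 15 counts in control (exact Poisson 95% interval 8.40 to 24.7) and 51 in stretched (38.0 to 67.1), or 0.687 and 2.74 FPKM. The intervals did not overlap, yet Fcgr4 was the least abundant of the 6 genes in both libraries. It was 3.71-fold higher in stretched (95% counting interval 2.05 to 7.10), a log2 difference of 1.86 with the prior, and 0.83% of tested genes had a higher value. On the log2(FPKM + 1) scale, which shrinks differences of genes at low levels, the difference was 1.15. The authors' deposited table marks it as up, with a log2 fold change of 1.88 and an adjusted p of 0.00257. A further limit is its depth: 15 control counts leave the size of the difference uncertain over the range of that interval.

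**Figure D2:**
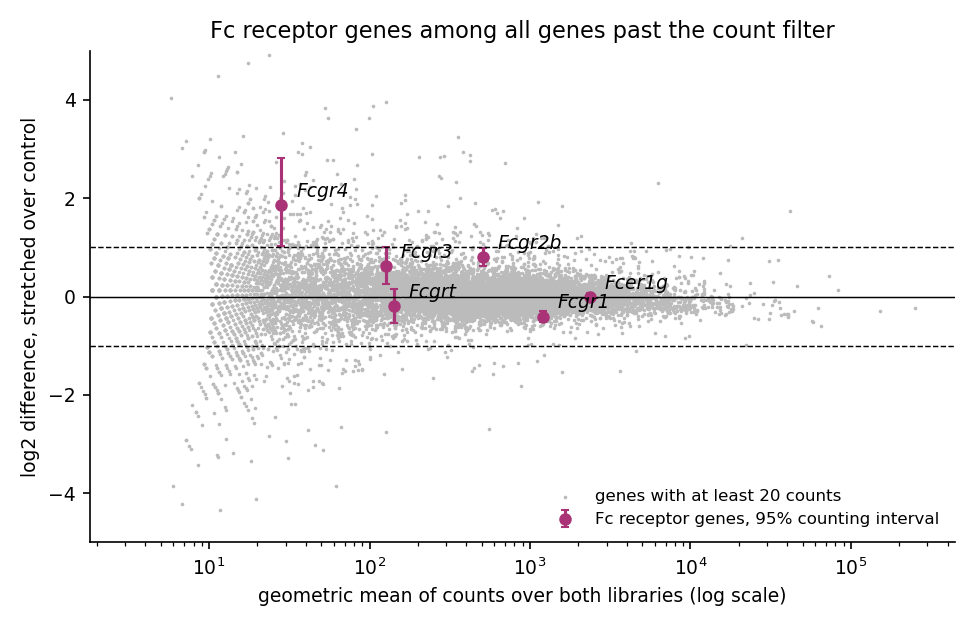
Log2 difference (stretched over control) against the geometric mean of counts in both libraries (log scale) for the genes with at least 20 counts (grey; 7 lie outside the plotted range) and the 6 Fc receptor genes (coloured, bars are 95% counting intervals). Dashed lines mark 2-fold; Fcgr4 at 1.86 lies above the upper line at low counts, and Fcgr2b at 0.80 lies under it.

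Fcer1g encodes the FcR gamma chain, on which surface display and signalling of the 3 activating receptors depend. The codons of its activation motif are printed because this chain carries the signal for all of them. They were read from the minus strand of GRCm38 at chr1:171229889-171230072, a span that includes an intron, with the tyrosine codons in capitals and 30 bases between these codons.
Fcer1g ITAM codons: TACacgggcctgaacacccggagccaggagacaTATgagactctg
The gene (ENSMUSG00000058715, chromosome 1, 171057141 to 171061934, minus strand) had 2492 and 2262 counts, control and stretched. Its level of 227 FPKM in control and 232 in stretched was the highest of the 6 genes in both libraries. The log2 difference was -0.01 (-0.10 to 0.07); on the log2(FPKM + 1) scale it was 0.03. In FPKM it stood at 5.75 times the sum of Fcgr1, Fcgr3 and Fcgr4 in control and 6.31 times in stretched.

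Fcgr2b encodes CD32b, the inhibitory IgG receptor. Its inhibitory motif, isoleucine-x-tyrosine-x-x-leucine, is shown as codons from the minus strand of GRCm38 at chr1:170961071-170961088, with the tyrosine codon in capitals, since this is the part that sets it apart in function from the other IgG receptors.
Fcgr2b ITIM codons: atcaccTACtcacttctc
The gene (ENSMUSG00000026656, chromosome 1, 170786186 to 170804116, minus strand) had 403 and 643 counts, control and stretched, and 12.6 and 25.2 FPKM. Its Poisson intervals of 365 to 444 and 594 to 695 counts did not overlap. The log2 difference by counts was 0.80 (0.62 to 0.98), a ratio of 1.74, and 5.05% of tested genes had a higher value. The FPKM ratio was 1.99, so the gene lay just under the 2-fold limit on that scale. That ratio also rests on how counts were divided among transcripts of different lengths. In the authors' deposited table the log2 fold change was 0.80 and the adjusted p 0.0203, and the gene carries no mark of regulation there.

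Fcgrt encodes the heavy chain of the neonatal Fc receptor FcRn, a relative of MHC class I that pairs with beta-2 microglobulin. The gene (ENSMUSG00000003420, chromosome 7, 44742414 to 44753275, minus strand) had 158 and 127 counts and 6.02 and 4.99 FPKM, control and stretched. The difference of -0.19 had a counting interval of -0.54 to 0.16 and so was not detectable at this depth. It was 0.07 when coding transcripts alone were summed. Its partner gene B2m had 10739 and 9786 counts, a log2 difference of -0.01, and the ligand gene Alb, for albumin, was at 0 counts in both libraries.

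The balance of activating to inhibitory receptors, in FPKM of all transcripts of each gene, was smaller in stretched than in control. The sum of Fcgr1, Fcgr3 and Fcgr4 was 39.5 FPKM in control and 36.8 in stretched, and its ratio to Fcgr2b was 3.12 in control and 1.46 in stretched. Fcgr1 made up 86.2% of the activating sum in control and 71.8% in stretched. Fcgr1 over Fcgr2b alone was 2.69 in control and 1.05 in stretched, where their FPKM intervals (24.8 to 28.1 and 23.2 to 27.2) overlapped. Fcgr3 and Fcgr4 together had 5.46 and 10.4 FPKM, and Fcgr2b stood at 2.32 and 2.43 times that sum. Fcgr2b thus took 24.2% of the FPKM of the 4 receptor genes in control and 40.6% in stretched. These levels of Fcgr2b include transcripts that code for no protein. With coding transcripts alone, an alternative added after the data were seen, Fcgr2b had 7.90 and 15.1 FPKM, the ratio of the activating sum to it was 4.96 in control and 2.44 in stretched, and that of Fcgr1 was 4.31 and 1.76. Fcgr2b then took 16.8% and 29.0% of the 4 genes and stood at 1.54 and 1.46 times the sum of Fcgr3 and Fcgr4. In stretched, Fcgr1 and Fcgr2b were therefore close in FPKM over all transcripts but not over coding ones. These ratios are of RNA levels in 1 library each and carry no error between cultures. They also rest on how counts were divided among transcripts of different lengths.

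Fcgr2b and Fcgr3 have nearly the same extracellular part, which bears on how their reads could be divided. Over the exons of the first and second immunoglobulin domain, 255 bases each, they were 94.5% and 98.0% identical, and the longest run shared by their transcripts was 129 bases, whereas Fcgr4 was 58.6% identical to either over both exons. Of the 51-base windows along the main Fcgr3 transcript, 12.6% occur in Fcgr2b as well, and of those along Fcgr2b-202, 11.5% occur in Fcgr3; the transcripts of the other 4 genes shared none with another gene. Each gene's own count is therefore uncertain to the extent that reads from these stretches were divided by estimate. Summed, the 2 genes had 509 and 793 counts, a log2 difference of 0.76 (0.60 to 0.93), between the values of each alone.

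The transcript table divides the 6 genes into 23 transcripts. Of the 15 with at least 20 counts, 6 were at least 2-fold higher with intervals excluding no difference, 2 lower and 7 neither, but transcript counts are estimates that vary widely here: 13.3% of all 28036 transcripts past the filter were higher and 13.2% lower. For Fcgr2b the forms of interest differ by 1 exon in the cytoplasmic tail, 141 bases or 47 codons. In mice, the form with it (known as b1) is typical of B cells and is held at the surface, and the form without it (b2) is typical of macrophages and is taken up with bound complexes. The exon is printed because the split between these forms turns on it; it lies on the minus strand of GRCm38 at chr1:170963325-170963465, and capitals mark the 57 bases that the short variant Fcgr2b-203 keeps.
Fcgr2b alternative exon: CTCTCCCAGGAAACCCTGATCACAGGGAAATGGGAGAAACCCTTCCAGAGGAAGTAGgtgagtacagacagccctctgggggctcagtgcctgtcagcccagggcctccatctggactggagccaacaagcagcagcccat
Coding transcripts with the whole exon had 180 counts in control and 185 in stretched. Fcgr2b-202, the coding transcript without it, had 108 and 222 counts, 2.24-fold higher in stretched (log2 1.16, 0.83 to 1.51). The form without the exon thus took 36.7% (Wilson 95% interval 31.4% to 42.4%) of the coding counts of control and 52.4% (47.6% to 57.1%) of those of stretched, and the form with it 61.2% (55.5% to 66.6%) and 43.6% (39.0% to 48.4%).

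The Fcgr2b counts that were not in these forms also belong to the gene's total. Fcgr2b-203 had 6 and 17 counts, and transcripts that code for no protein, chiefly the retained-intron transcript Fcgr2b-205 (74 and 157), took 27.0% of the gene in control and 34.1% in stretched. Coding transcripts alone had a log2 difference of 0.65, from 294 and 424 counts. The last exons of Fcgr2b-201 and Fcgr2b-202 differ in length, 2484 and 543 bases, so the estimate of the forms rests on coverage of the 3′ end as well as on the insert exon. Of all counts of the gene, noncoding transcripts included, Fcgr2b-201 took 44.7% in control and 28.5% in stretched. A shift at least as large as these 16.2 percentage points occurred in 21.1% of 8533 genes. Those genes had several transcripts and at least 100 counts in each library, and their median shift was 4.27 points. Of the B cell markers, Ms4a1 and Igkc were at 0 counts in both libraries, and the immunoglobulin heavy chain gene Ighm was lower, with 6422 and 2048 counts. Of the summed level of the 8 markers, 238 and 87.1 FPKM, Ighm alone made up 237.6 and 86.6, and the other 7 summed to 0.460 and 0.573.

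**Figure D3:**
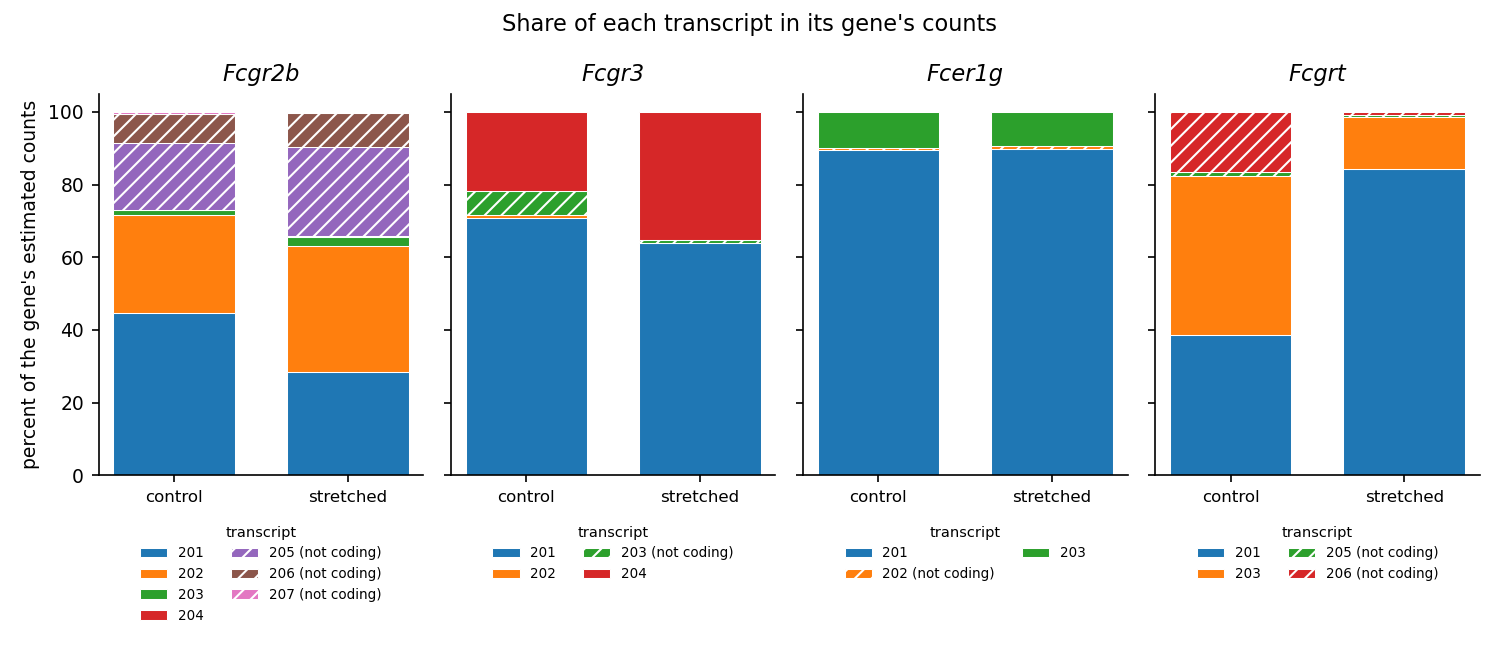
Share of each annotated transcript in the estimated counts of its gene (percent; transcript number in the legend, hatching marks transcripts that are not coding) in the control and the stretched library, 1 library each. The Fcgr2b-202 share was 26.8% and 34.5% of all counts of the gene, and the Fcgrt-201 share 38.6% and 84.3%, while Fcer1g-201 stayed near 89.4% and 89.7%.

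Fcgrt had the widest shift of transcripts among the 6 genes, at an almost equal total of coding counts, 130 and 125. Fcgrt-201 had 61 counts in control and 107 in stretched, whereas Fcgrt-203 had 69 and 18 and was 3.51-fold lower (log2 -1.78, -2.65 to -1.05). In their coding bases these forms differ at a splice site: Fcgrt-203 keeps 12 more bases, or 4 codons. The whole transcripts are 1770 bases (Fcgrt-201) and 1602 bases (Fcgrt-203) long, so they also differ outside the coding part. The 12 bases are shown in capitals between flanks from both exons, on the minus strand of GRCm38 at chr7:45102171-45102428, a span that includes an intron.
Fcgrt splice site: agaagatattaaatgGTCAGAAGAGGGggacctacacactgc
The retained-intron transcript Fcgrt-206 had 26 counts in control and 1 in stretched (log2 interval -9.93 to -1.97), and retained-intron transcripts together took 17.7% of the gene (12.6% to 24.4%) and 1.57% (0.433% to 5.56%). A shift as large as the 45.6 points of Fcgrt-201 occurred in 4.01% of the 8533 genes. With 158 and 127 counts for the gene, the division between Fcgrt-201 and Fcgrt-203 is an estimate whose error is not part of these intervals.

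Fcer1g and Fcgr3 showed smaller shifts. The standard gamma chain transcript Fcer1g-201 had 2227 and 2029 counts, and Fcer1g-203, which reads 74 further bases as coding and whose reading frame then codes no ITAM, had 249 and 211. Those bases lie within an intron of Fcer1g-201, on the minus strand of GRCm38 at chr1:171230922-171230995, and are printed because they separate a signalling from a motif-free form.
Fcer1g-203 extra bases: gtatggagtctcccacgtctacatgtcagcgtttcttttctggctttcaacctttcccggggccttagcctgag
The form without the motif took 10.1% (8.93% to 11.3%) of coding counts in control and 9.42% (8.28% to 10.7%) in stretched. Its share of all counts of the gene differed by 0.664 points, and a shift at least as large occurred in 79.8% of genes. The main Fcgr3 transcript had 75 and 96 counts. A second coding transcript, which lacks 3 of its coding bases, had 23 and 53 and was 2.51-fold higher (log2 1.31, 0.60 to 2.10); a shift as large as its 13.6 points occurred in 24.8% of genes. Nearly all Fcgr1 counts lay in its full coding transcript (1440 and 995), and Fcgr4 has 1 transcript.

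Promoter windows of 250 bases before each annotated start were searched on both strands for the interferon gamma activated site (GAS, TTCNNNGAA), the interferon-stimulated response element (ISRE, a pair of GAAA separated by any 2 bases) and the core bound by PU.1, the macrophage transcription factor made by Spi1 (GAGGAA). The windows of Fcgr1 and Fcgr4 are printed since these are the IgG receptor genes with an interferon-type motif in the window, and their differences had opposite signs; capitals mark the motifs, and the sequences are from RefSeq on GRCm38.p6, Fcgr1 from chr3:96293970-96294219 on the minus strand and Fcgr4 from chr1:171018676-171018925 on the plus strand.
Fcgr1 promoter: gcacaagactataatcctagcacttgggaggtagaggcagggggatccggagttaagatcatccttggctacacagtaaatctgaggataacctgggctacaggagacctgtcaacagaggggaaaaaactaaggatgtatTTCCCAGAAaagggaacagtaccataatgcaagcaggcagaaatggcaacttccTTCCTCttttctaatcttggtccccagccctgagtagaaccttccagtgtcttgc
Fcgr4 promoter: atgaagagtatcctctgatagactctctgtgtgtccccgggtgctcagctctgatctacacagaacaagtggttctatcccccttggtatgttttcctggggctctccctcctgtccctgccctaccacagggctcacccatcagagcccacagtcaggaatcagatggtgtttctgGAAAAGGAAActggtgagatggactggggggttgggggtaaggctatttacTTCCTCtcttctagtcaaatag
Counting the base before the start as -1, the Fcgr1 window held a GAS match at -109 to -101 and a PU.1 core at -55 to -50, and the Fcgr4 window an ISRE match at -73 to -64 and a PU.1 core at -22 to -17. The Fcgr3 window held a PU.1 core at -15 to -10, or at -6 to -1 from its other annotated start. In the windows of Fcgr2b, Fcer1g and Fcgrt none of these letters occurred. Of 32817 promoters, 7.01% held the GAS letters, 2.97% the ISRE letters and 23.3% the PU.1 core, and a match is a description of the sequence alone.

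Genes for transcription factors known to act on Fc receptor genes numbered 15 past the filter, of which 1 was higher and 0 lower. Of all genes, 3.12% were higher and 1.94% lower. The median log2 difference of the 15 was -0.11, beside -0.0014 over all genes. Stat2, whose product acts with IRF9 at ISRE elements, had 380 and 778 counts and was higher (log2 1.16). Its partner gene Irf9 (532 and 851 counts, 0.80) did not reach 2-fold, and Klf4, a zinc finger factor of monocytes, had 634 and 364 counts (-0.67). Among 5 measured genes of interferon gamma signalling, 1 was higher, 0 lower, and the median was 0.08: the feedback inhibitor gene Socs1 had 8 and 22 counts (1.53), while the receptor genes Ifngr1 and Ifngr2 had differences of -0.31 and 0.17 and the kinase gene Jak2 of -0.25. Ifng, for interferon gamma itself, had 1 count in control and 0 in stretched.

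On chromosome 1, Fcgr2b, Fcgr4, Fcgr3 and Fcer1g lie within 276 kb. No gene with counts overlapped any of the 6 genes. Within 100 kb, 13 other chromosome 1 genes passed the filter, of which 1 was higher and 0 lower: the noncoding gene Gm20045, 86.2 kb from Fcer1g, with 11 and 43 counts (log2 2.05). Between Fcgr3 and Fcer1g lay Sdhc, a subunit of respiratory complex II, with 1648 and 1643 counts (0.12), and 7.06 kb from Fcer1g lay Tomm40l, of the mitochondrial import machinery, with 340 and 321 (0.04). Beyond Fcgr2b, the stress sensor gene Atf6 had 5192 and 3770 counts (-0.34) and the phosphatase gene Dusp12 159 and 183 (0.33). Around Fcgr1, the noncoding gene Gm20628, 12.6 kb away, was lower with 38 and 7 counts, and the histone gene H2ac20, 62.0 kb away, was lower with 20 and 0. Gm20628 overlaps Gm42743, H3c13 and H2bc18 on the opposite strand, and whether the counting used strand is not given. H2ac20 stands exactly at the filter of 20 counts, all of them in control. Near Fcgrt, the model Gm45713 was lower with 78 and 0 counts, but it overlaps Rpl13a and Flt3l on the same strand, so its count depends on how coverage was divided. Of all 38 neighbours past the filter, 1 was higher and 3 lower, beside 3.12% higher and 1.94% lower of all genes.

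**Figure D4:**
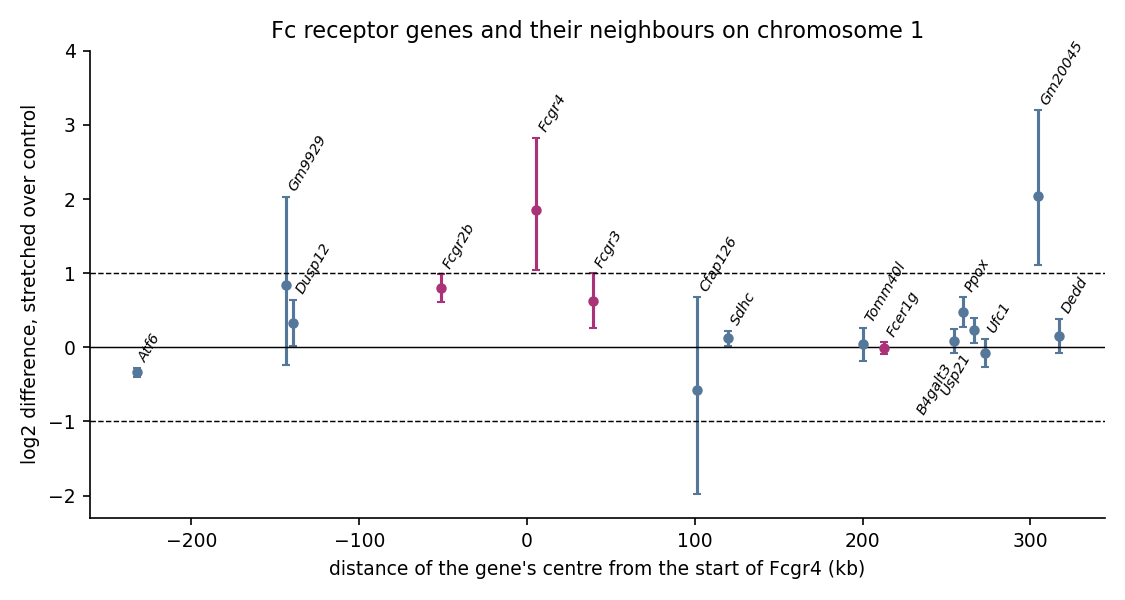
Log2 difference (stretched over control) with 95% counting intervals for the Fc receptor genes (coloured) and neighbouring genes reported here, within 100 kb of them on chromosome 1 and with at least 20 counts (grey-blue), by distance of the gene's centre from the start of Fcgr4 in kb. Fcgr2b, Fcgr4 and Fcgr3 at 0.80, 1.86 and 0.62 are adjacent among the plotted genes, and Fcer1g and its neighbour Tomm40l sit at -0.01 and 0.04.

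The other genes of the pathway, in 11 lists, held 123 distinct genes past the filter, of which 5 were higher (4.07%), 1 was lower (0.813%) and 117 met neither side; their median log2 difference was 0.02. Of 14 genes listed as other Fc receptor or Fc receptor-like genes, 3 passed the filter, with a median of 0.13 and 0 meeting the rule. Of the 14, 7 were at 0 in both libraries. The 3 past the filter were Trim21, a cytosolic antibody receptor (103 and 123 counts, 0.38), Cd300lf, an inhibitory receptor of the CD300 family (68 and 68, 0.13), and the Fc receptor-like gene Fcrl1 (741 and 706, 0.06).

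Other chains and receptors with activating motifs were measured alongside. Of 2 other ITAM or related chains past the filter, 0 met the rule: Tyrobp, for DAP12, had 1604 and 1359 counts (-0.11) and Hcst, for DAP10, 58 and 44 (-0.27), a median of -0.19. The 8 other activating receptors had a median of 0.35, with 0 higher and 1 lower, beside 3.12% higher and 1.94% lower of all genes. Clec4e and Clec4d, for the C-type lectins Mincle and MCL that also use the gamma chain, had 1735 and 3105 counts (0.97) and 477 and 826 counts (0.92), both short of 2-fold, and Cd300lb, which uses DAP12, had 1514 and 2315 (0.74). Pira1, of a family of near-identical paralogs and therefore uncertain, was lower with 26 and 10 counts (-1.21).

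Other receptors listed as inhibitory (ITIM) receptors of macrophages numbered 13 past the filter, and their median was 0.17. Of these, 2 were higher and 0 lower, beside 3.12% higher and 1.94% lower of all genes. Ceacam1, an adhesion receptor, had 55 and 111 counts (1.13), and the lectin receptor gene Clec4a2 had 17 and 39 (1.30). Lilrb4b and Lilrb4a, close paralogs whose counts are uncertain, had 5303 and 9433 (0.96) and 9573 and 15099 (0.78). Clec12a, a lectin receptor that senses dead cells, had 1473 and 692 counts (-0.96), just short of the rule on the lower side.

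Genes downstream of the receptors were read against the 3.12% higher and 1.94% lower of all genes. Of 14 kinases 0 met the rule, with a median of -0.03; Syk, which docks on the phosphorylated ITAM, had 737 and 730 counts (0.11), and the largest differences were -0.48 at Lck, 0.38 at Prkce and 0.35 at Pik3cb. The 41 adaptors and effectors had a median of 0.05, with 1 higher and 0 lower. It was Lat, a membrane scaffold best known from T cells, on 7 and 29 counts (2.10); Pld1 (0.68), Myo10 (0.66), a motor of phagocytic cups, and Itpr1 (0.40) followed.

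Phosphatases and inhibitors, 15 past the filter, had 0 meeting the rule and a median of 0.02, with -0.50 at Ptpn6, the phosphatase SHP-1 that ITIM receptors recruit (6795 and 4390 counts), -0.46 at Pag1 and 0.36 at Inppl1. The 7 genes of the phagocyte NADPH oxidase had 0 meeting the rule and a median of -0.09, with -0.49 at the proton channel gene Hvcn1 and 0.22 at Cyba. Of markers of other white cells past the filter, the neutrophil marker Csf3r was lower (346 and 152 counts), with S100a8, S100a9 and Ly6g at 0 in both libraries. The dendritic cell marker Siglech was lower too (25 and 4). The mast cell marker Hdc (15 and 25 counts, 0.84) and the dendritic cell marker Zbtb46 (37 and 23, -0.55) met neither side. The part of these markers in the differences of the receptor genes was not tested.

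**Figure D5:**
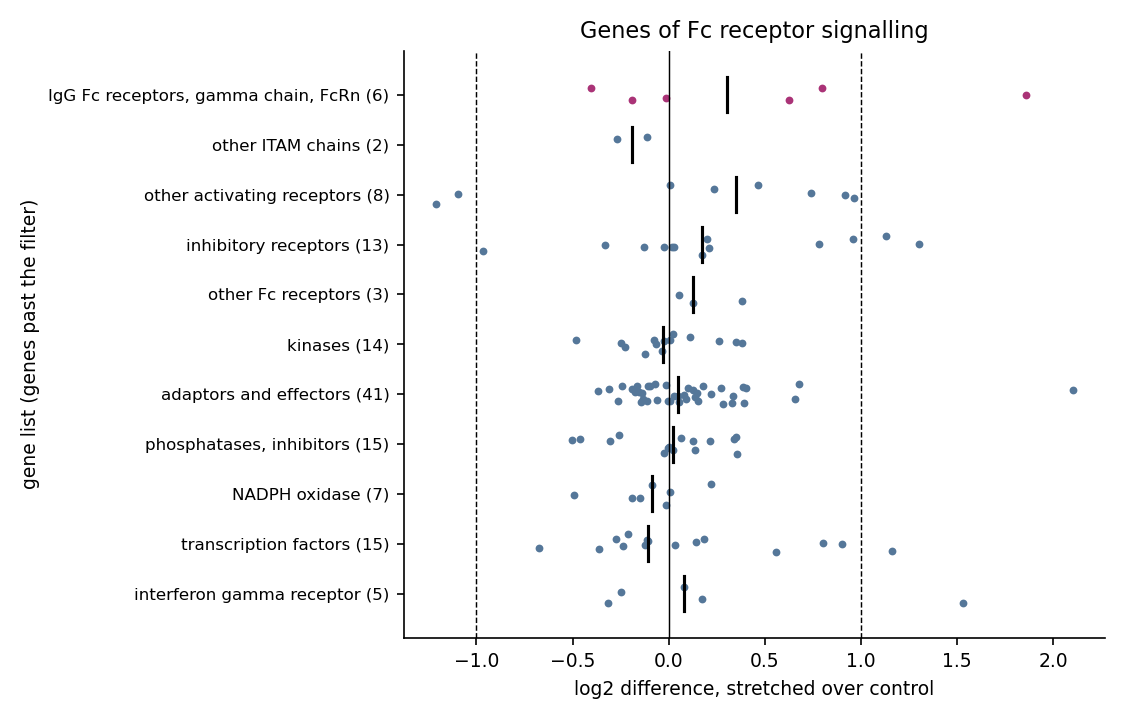
Log2 difference (stretched over control) of the genes past the count filter in each list, 1 point per gene with vertical scatter for legibility, black bars for list medians and dashed lines at 2-fold; the number of genes is in parentheses. Fcgr4 at 1.86, Lat at 2.10 and Socs1 at 1.53 lie beyond the upper line, while the kinase and oxidase lists, with medians of -0.03 and -0.09, lie within both lines.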

How the data were processed

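Poly(A) RNA was sequenced from 1 library per group, 2 in all. Per the submitters' processing notes, StringTie and the genome build GRCm39 were used; which aligner, which versions and whether the counting used strand remain not given in the sources used here. For 55414 genes and 142438 transcripts the authors deposited estimated counts and FPKM values. The estimated counts are whole numbers as deposited: 100.0% of transcripts in both libraries were, within 0.05 counts, what results from multiplying FPKM by length and by a library constant and rounding up. A further deposited table by the authors lists, per the file headers, log2 fold changes, p-values and adjusted p-values by gene. The authors' mapping summary gives a total read count, used here for the stretched library (35454910 reads).

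Here gene counts were scaled with TMM factors (edgeR 4.0.16, R 4.3.3), and the log2 difference sets stretched over control after adding a prior of 0.5 counts. Ratios have exact conditional binomial 95% intervals, counts exact Poisson intervals and shares Wilson intervals (SciPy 1.17.1). These cover counting error only, because each group had 1 library. PCR copies were not marked by molecular identifiers, so the intervals may also understate the counting error. The size rule asked for at least 20 counts over both libraries, at least 2-fold and an interval without 1. It was also applied to deposited transcript counts. With 1 library per group no test was run. The members and the gene lists were chosen with earlier results of these data known, and the genes of 20 lists (216 entries, 215 matched by symbol, 1 unmatched) were read from the deposited table. One entry was removed and one list renamed after the data were seen. Besides the 6 genes, the text names list genes that met the size rule, the 3 largest differences on at least 100 counts where fewer than 3 did, and genes within 100 kb; a few of these genes are not reported here. The kinase Syk was added after its values were seen. DESeq2 1.42.0 size factors, library totals, counts rebuilt without rounding up, FPKM, a prior of 5, other count filters, a 1.5-fold limit and coding transcripts alone were the alternatives. For Fcgr2b and Fcgr3, their summed counts were a further alternative. Promoter sequences are from RefSeq (GRCm38.p6) and coding sequences from GENCODE M21 (GRCm38), whose transcript lengths equalled the deposited ones for 23 of 23 transcripts; gene positions are those of the deposited tables (GRCm39).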

Additional observations from a re-analysis of the deposited data

How the results depend on the processing

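With 1 library per group, no spread between cultures was measured, and the intervals cover counting error alone. The count of Fc receptor genes that were at least 2-fold higher was 1; it was 0 with a filter of at least 100 counts, which removes Fcgr4, and 3 with a limit of 1.5-fold. The pathway count of 5 higher genes was 2 with at least 100 counts and 7 with no filter on low counts. It was 14 at 1.5-fold and 1 on the log2(FPKM + 1) scale. The pathway count of 1 lower gene was 2 with DESeq2 size factors, 3 at 1.5-fold and 0 with a prior of 5, with at least 100 counts or on the FPKM scale. Taking coding transcripts alone, chosen after seeing the data, moved the FPKM ratio of the activating receptors to Fcgr2b to 4.96 in control and 2.44 in stretched, from 3.12 and 1.46, and that of Fcgr1 to 4.31 and 1.76, from 2.69 and 1.05, since it leaves out the noncoding transcripts of Fcgr2b. Beyond the counts that a changed limit or filter sets by construction, the cause of these shifts was not tested. Over the alternatives, log2 differences ran from -0.45 to -0.35 for Fcgr1 and 0.65 to 0.94 for Fcgr2b. They ran from 0.58 to 0.71 for Fcgr3 and 1.15 to 1.92 for Fcgr4. Those of Fcer1g (-0.06 to 0.03) and Fcgrt (-0.23 to 0.07) included both signs. The summed counts of Fcgr2b and Fcgr3 gave 0.76 and are left out of these ranges. Summing overlapping gene models gave no value, since no gene with counts overlaps any of the 6. No paired analysis was possible because each group had 1 library and the labels give no replicate numbers.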
